A study of Mus musculus with 8 samples.

Results

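The mitochondrial ribosomal proteins were taken as every gene listed as Mrpl or Mrps followed by a number, with a trailing letter allowed and pseudogenes left out, in RNA sequencing tables of mouse tibialis anterior, the shin muscle that lifts the foot. There were 77 such genes among the 24341 listed, 48 named Mrpl and 29 named Mrps, and all 77 had a usable value in every library. The Carm1 skm-/- animals carried floxed Carm1 with the HSAcre transgene (Tg/0), which drives Cre recombinase from the skeletal actin promoter of humans and so acts in muscle fibres and not in the other cells of the muscle. The Carm1 skm+/+ animals carried the same floxed gene without Cre (HSAcre 0/0). Carm1 encodes a protein arginine methyltransferase. Each genotype had 4 animals, described as males of 12 weeks on a chow diet, and 1 library was made from each. Cre and loss of Carm1 go together in every library, so their effects cannot be told apart.

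Mitochondria hold a genome of their own for a small set of proteins, all subunits of the respiratory chain or of ATP synthase. They translate these on a ribosome of their own. Its RNAs come from the mitochondrial genome, while its proteins are encoded in the nucleus, made in the cytosol and imported. Mrpl genes name proteins of the large subunit, where peptide bonds form, and Mrps genes those of the small subunit, which reads the messenger RNA. The names do not follow structure in every case: Mrps30 and Mrps18a proteins sit in the large subunit of the mammalian mitochondrial ribosome, and Mrps36, also called Kgd4, is now known as a component of the 2-oxoglutarate dehydrogenase complex.

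The values are FPKM, fragment counts set relative to transcript length and to the library's mapped fragments, divided by a scaling factor per library and called scaled FPKM below. A log2 difference is knockout minus wild type on log2(scaled FPKM + 1). No read counts are given, and the shallowest library had an estimated 80.9% of the depth of the deepest. Carm1 itself averaged 15.4 ± 2.57 scaled FPKM in knockout muscle and 30.5 ± 4.82 in wild-type muscle (SD, n = 4 each), with no overlap (exact permutation test, 2-sided, p = 0.0286, the lowest value possible with 70 assignments). Xist, a transcript of female cells, was above 1 FPKM in knockout 2, knockout 4 and wild type 1. All animals are described as male. In the same order, Eif2s3y of the Y chromosome was at 0, 0.0484 and 0.112 FPKM, against 42.3 to 58.1 elsewhere. Myh2 was at 1540, 1535 and 764 FPKM there, against 122 to 167 elsewhere. Myh4 was listed at 0 except in knockout 2 and knockout 4, at 2937 and 3056 FPKM. Those libraries were also left out together. Results are also given within the 5 libraries without Xist and the 3 with it. The 3 with it set knockout 2 and knockout 4 against wild type 1 alone. Of 12 fibre markers, Acta1, Ckm, Tnnt3, Myh1, Myh4 and Atp2a1 lacked a usable value in at least 1 library, and the other 6, Mylpf and Pvalb among them, were tested. Fewer fibres and less RNA per fibre cannot be told apart in whole muscle.

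None of the 77 genes passed the test between the genotypes, and as a group they were slightly lower in the knockout. In limma across 11096 genes, with Benjamini-Hochberg adjustment, 0.36% of genes passed at an adjusted p under 0.05, and 0 of the 77 did; the smallest adjusted p among them was 0.0869, and 8 (10.4%) had an unadjusted p under 0.05, against 13.1% of all genes. The log2 difference was below 0 for 61 of the 77, against 50.5% of all genes tested. Their median was -0.08, against -0.00 over all genes tested, but without scaling of the libraries it turned to 0.01, with 35 of 77 below 0, where the median of all genes stood at 0.07. The median knockout level was 94.7% of the wild-type level. Most differences were small next to their error: 67 of the 77 lay within 2 standard errors of 0, and 39 lay within 0.1 of 0.

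**Figure D1:**
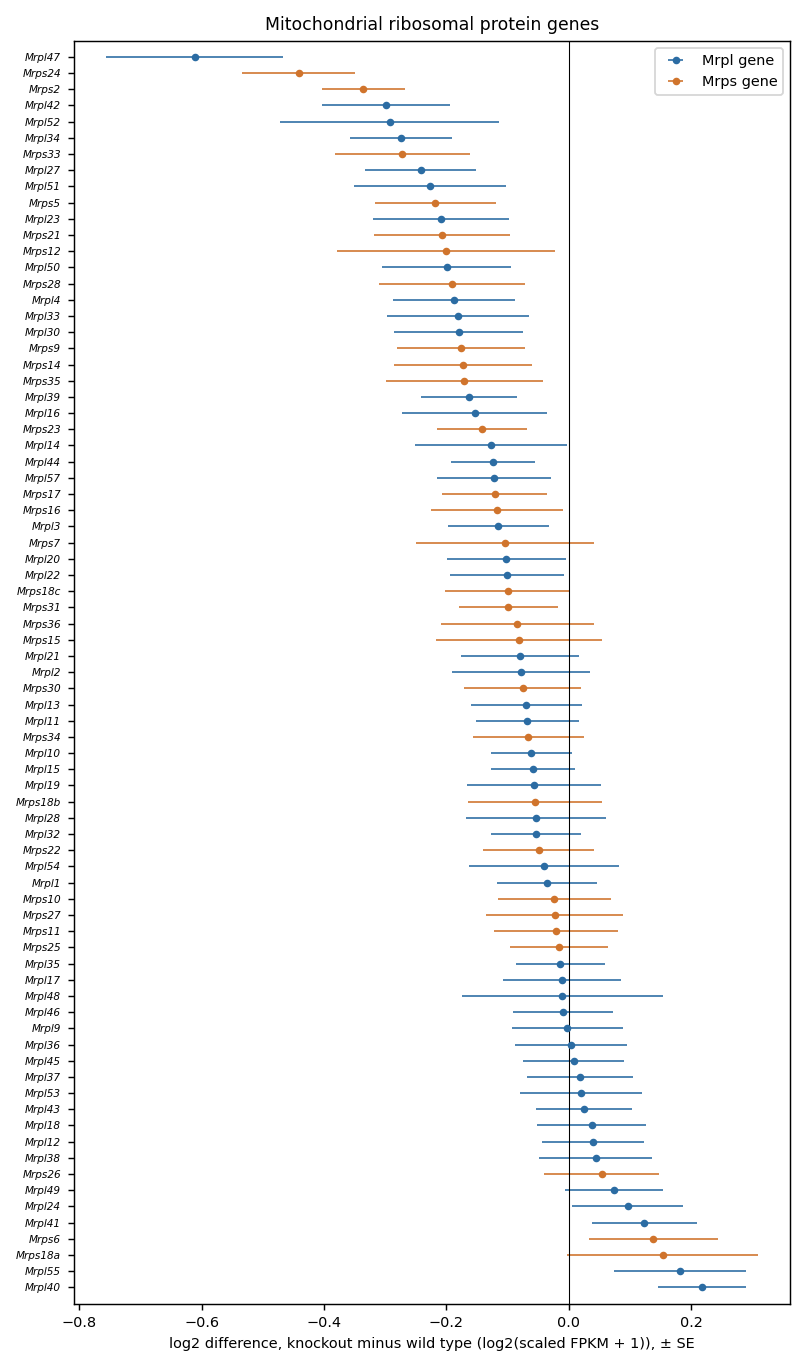
Log2 difference, knockout minus wild type, of each of the 77 genes (points, with standard error from limma, n = 4 libraries per genotype), sorted, with Mrpl and Mrps genes in different colours. Mrpl47, Mrps24 and Mrps2 lie lowest, at -0.61, -0.44 and -0.34, Mrpl40 lies highest, at 0.22, and 61 of the 77 points are below 0.

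The small-subunit names lay a little lower than the large-subunit names, a difference that was not tested. Of the 29 Mrps genes 26 were below 0, with a median of -0.10, and of the 48 Mrpl genes 35 were, with a median of -0.06. The 3 Mrps genes above 0 were Mrps18a, Mrps6 and Mrps26, at 0.15, 0.14 and 0.05. An unadjusted p under 0.05 in the lower direction was found for 7 of the 77 (9.09%), against 6.07% of all genes, and in the higher direction for 1 (1.3%), against 7.03% of all genes. Groups without overlap were found for 5 members in the lower direction (6.49%), against 3.64% of all genes, and for 1 in the higher direction, against 4.67% of all genes.

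Promoter windows of some members are printed for their starts and for short motifs of factors known to act on nuclear genes of mitochondria. They were read from RefSeq (GRCm38.p6, the assembly of mm10), run from 250 bases before the annotated start to 50 after it, and are written 5′ to 3′ on the gene's own strand with motif matches in capitals. Mrpl47 (chr3:32736706-32737005, minus strand) is the member with the largest difference, Mrps24 (chr11:5707652-5707951, minus strand) and Mrpl34 (chr8:71464676-71464975, plus strand) are members without overlap that hold a match, Mrpl39 (chr16:84735195-84735494, minus strand) is the member of smallest p with a match to the NRF1 letters, and Mrpl40 (chr16:18876588-18876887, minus strand) is the member with no overlap in the higher direction.
Mrpl47: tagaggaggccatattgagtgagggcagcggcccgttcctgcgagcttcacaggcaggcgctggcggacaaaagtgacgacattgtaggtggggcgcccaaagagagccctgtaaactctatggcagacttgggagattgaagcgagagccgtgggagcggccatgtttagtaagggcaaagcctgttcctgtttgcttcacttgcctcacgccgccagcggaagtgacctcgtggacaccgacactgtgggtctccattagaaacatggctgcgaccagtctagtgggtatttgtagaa
Mrps24: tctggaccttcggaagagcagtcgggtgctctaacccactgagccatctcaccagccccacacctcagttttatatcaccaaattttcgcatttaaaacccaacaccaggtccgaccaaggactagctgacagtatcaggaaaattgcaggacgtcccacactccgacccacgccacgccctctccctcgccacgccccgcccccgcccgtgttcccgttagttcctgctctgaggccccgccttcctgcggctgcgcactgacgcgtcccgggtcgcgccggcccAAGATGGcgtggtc
Mrpl34: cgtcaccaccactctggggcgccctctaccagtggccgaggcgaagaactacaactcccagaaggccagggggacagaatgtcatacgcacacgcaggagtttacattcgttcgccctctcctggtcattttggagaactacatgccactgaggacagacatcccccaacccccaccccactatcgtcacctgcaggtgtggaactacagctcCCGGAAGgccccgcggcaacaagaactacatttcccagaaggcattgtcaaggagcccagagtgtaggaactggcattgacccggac
Mrpl39: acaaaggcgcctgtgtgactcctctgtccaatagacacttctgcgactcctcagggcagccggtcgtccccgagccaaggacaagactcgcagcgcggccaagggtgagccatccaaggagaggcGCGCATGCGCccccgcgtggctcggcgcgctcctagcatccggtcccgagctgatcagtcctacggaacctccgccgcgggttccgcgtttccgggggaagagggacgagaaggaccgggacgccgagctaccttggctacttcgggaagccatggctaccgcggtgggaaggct
Mrpl40: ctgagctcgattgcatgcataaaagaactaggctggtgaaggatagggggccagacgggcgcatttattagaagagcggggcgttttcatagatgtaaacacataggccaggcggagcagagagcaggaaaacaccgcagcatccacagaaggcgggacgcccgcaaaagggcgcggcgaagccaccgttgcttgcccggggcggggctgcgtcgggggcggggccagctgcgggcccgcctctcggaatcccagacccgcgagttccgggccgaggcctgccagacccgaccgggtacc

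The letters searched on both strands were GCGCATG, from the NRF1 motif, CCGGAAG, from the motif of ETS factors such as GABPA, and AAGATGG, from the YY1 motif. In Mrps24 the YY1 letters begin 36 bases after the start base, and in Mrpl34 the ETS letters begin 37 bases before it. In Mrpl39 the NRF1 letters match on both strands, overlapping, from 125 and 122 bases before the start base. Windows of Mrps23 and Mrps2, also members without overlap, are not printed. Mrps23 held the ETS letters and Mrps2 held no match. Of the 68 members with a window in the table, 24 (35.3%) held the ETS letters, against 19.3% of 8468 tested genes with a window and 9.2% of all 27025 windows. The YY1 letters were in 13 members (19.1%), against 7.86% of tested genes and 6.48% of all windows, and the NRF1 letters in 8 (11.8%), against 7.59% and 4.02%. At least 1 of the 3 was in 36 members (52.9%), against 30.9% of tested genes. The median log2 difference was -0.09 over the 36 members with a match and -0.08 over the 32 without. By motif it was -0.11 with and -0.07 without the ETS letters, -0.02 with and -0.08 without the YY1 letters, and -0.06 with and -0.08 without the NRF1 letters, differences that were not tested. Mrpl4, Mrpl13, Mrpl15, Mrpl19, Mrpl38, Mrpl54, Mrps28, Mrps34 and Mrps35 were not in the table.

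Mrpl47, a protein of the large subunit, had the largest difference of the 77. It stood at 38.9, 52.0, 40.9 and 53.8 scaled FPKM in knockouts 1 to 4, against 81.9, 59.8, 79.2 and 64.4 in wild types 1 to 4. Every knockout library was below every wild-type library, with knockout 4 and wild type 2 nearest to each other. The mean was 46.4 ± 7.58 in knockout and 71.3 ± 10.9 in wild type (SD, n = 4 each), or 65.1%, and the log2 difference was -0.61 (SE 0.14, limma adjusted p = 0.125). With presence of Xist as a covariate it was -0.70 and passed (limma adjusted p = 0.0211), as 1 of 2 members that did, both lower, where 2.01% of all genes passed, 0.919% in the lower direction. The difference was -0.74 in the 5 libraries without Xist and -0.62 within the 3 with it. Mrpl47 also varied most of the 77 over the 8 libraries, with a coefficient of variation of 27.0% against a median of 9.62%. It lies on chromosome 3 from 32727497 to 32736755 (mm10).

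Mrps24, a protein of the small subunit, had the next largest difference. Its values were 81.1, 71.7, 95.8 and 82.1 scaled FPKM in knockouts 1 to 4, against 111, 113, 113 and 112 in wild types 1 to 4. The wild-type libraries were nearly identical, and the knockout libraries spread over a wider range below them. The log2 difference was -0.44 (SE 0.09, limma adjusted p = 0.0938), and with array weights Mrps24 was the 1 member that passed (limma adjusted p = 0.0475), where 0.928% of all genes did, 0.424% in the lower direction. It lay at -0.35 in the 5 libraries without Xist and at -0.52 in the 3 with it. The gene spans 5703983 to 5707699 on chromosome 11 (mm10).

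Mrps2, a small-subunit protein in which variants cause a mitochondrial disease in humans, had the smallest p of the 77. Mrps2 stood at 9.71, 10.6, 10.2 and 11.1 scaled FPKM in knockouts 1 to 4, against 13.1, 13.2, 13.6 and 13.6 in wild types 1 to 4. The groups were tight and well apart, at 10.4 ± 0.598 in knockout and 13.4 ± 0.279 in wild type (SD, n = 4 each). The log2 difference was -0.34 (SE 0.07, limma adjusted p = 0.0869). With Xist as a covariate it was -0.35 and passed (limma adjusted p = 0.0383). Within the 5 libraries without Xist it was -0.40, and within the 3 with it -0.25. Mrps2 was also among the 4 least abundant members, and it lies on chromosome 2 from 28468066 to 28471177 (mm10).

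Mrpl34, Mrps23 and Mrpl40 completed the members whose groups did not overlap. Mrpl34, of the large subunit, was at 87.5, 88.0, 95.9 and 93.2 scaled FPKM in knockouts 1 to 4, against 106, 125, 109 and 103 in wild types 1 to 4. Its log2 difference was -0.27 (SE 0.08, limma adjusted p = 0.21). Mrps23, a small-subunit protein with no counterpart in bacteria, was at 84.0, 88.8, 83.1 and 88.8 in knockouts 1 to 4, against 94.9, 104, 92.7 and 89.8 in wild types 1 to 4. Its groups met almost edge to edge, its log2 difference was -0.14 (SE 0.07, limma adjusted p = 0.469), and its locus overlaps those of Cuedc1 and 2210416O15Rik, so its value is uncertain. Mrpl40, a large-subunit protein whose human gene lies in the DiGeorge deletion region, was at 43.5, 39.5, 40.5 and 38.0 in knockouts 1 to 4, against 35.4, 34.3, 36.1 and 32.5 in wild types 1 to 4. It was the 1 member higher in every knockout library, by 0.22 on the log2 scale (SE 0.07, limma adjusted p = 0.243). Of these 3, Mrpl34 and Mrps23 lay at -0.22 and -0.09 and Mrpl40 at 0.13 within the 3 libraries with Xist, and at -0.29, -0.19 and 0.29 in the 5 without it.

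**Figure D2:**
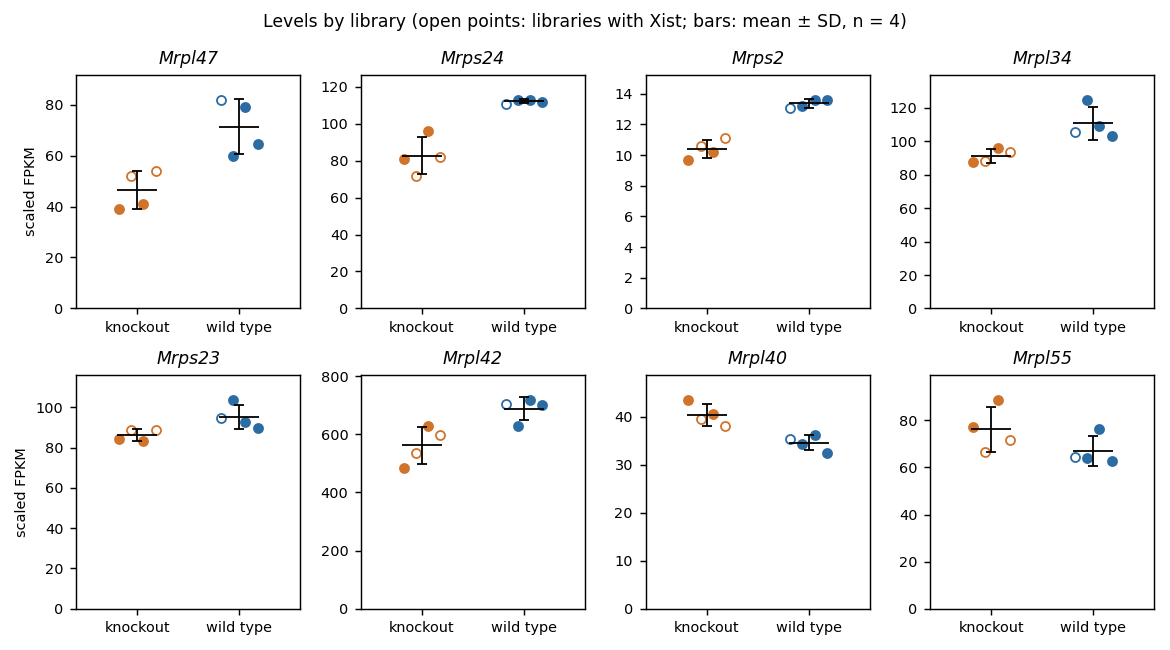
Scaled FPKM of 8 members in each of the 4 knockout (left) and 4 wild-type (right) libraries, with mean and SD; open points are the libraries with Xist. Knockout points lie below all wild-type points for Mrpl47, Mrps24, Mrps2, Mrpl34 and Mrps23 and above them for Mrpl40, while the groups of Mrpl42 and Mrpl55 overlap.

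Of the remaining members of smallest p, Mrpl42 and Mrpl27 were lower without separating the groups. Mrpl42, of the large subunit, was at 483, 537, 630 and 596 scaled FPKM in knockouts 1 to 4, against 705, 629, 718 and 701 in wild types 1 to 4. Knockout 3 and wild type 2 were level, and the log2 difference was -0.30 (SE 0.10, limma adjusted p = 0.268). Mrpl27, also of the large subunit, averaged 65.5 ± 4.86 in knockout and 77.8 ± 7.06 in wild type (SD, n = 4 each), a log2 difference of -0.24 (SE 0.09, limma adjusted p = 0.306). In the other direction Mrpl55 stood at 0.18, Mrpl41 at 0.12 and Mrpl24 at 0.10, all of the large subunit, and Mrps6 of the small subunit at 0.14, with limma adjusted p-values between 0.512 and 0.713. Mrpl41, Mrpl24 and Mrps6 overlap the listed genes Dph7, Rrnad1 and Slc5a3, so their values are uncertain.

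The 3 Mrps18 genes are paralogs of 1 bacterial ribosomal protein, and their proteins occupy different sites of the ribosome. Mrps18a, whose protein sits in the large subunit, averaged 114 ± 17.6 scaled FPKM in knockout and 102 ± 17.7 in wild type (SD, n = 4 each). Mrps18b averaged 31.6 ± 4.69 in knockout and 32.6 ± 1.26 in wild type, and Mrps18c 121 ± 8.62 in knockout and 130 ± 15.8 in wild type (SD, n = 4 each). All 3 pairs of groups overlapped, with log2 differences of 0.15, -0.06 and -0.10 and limma adjusted p-values between 0.734 and 0.868. In both genotypes Mrps18b, of the small subunit, was the least abundant of the 3 per unit length.

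Some members were singled out for their role after their values were seen. The stalk proteins, which recruit translation factors to the ribosome, are represented by Mrpl10 at -0.06, Mrpl11 at -0.07 and Mrpl12 at 0.04 on the log2 scale. Around the tunnel exit, where the new chain leaves the large subunit, Mrpl22 stood at -0.10, Mrpl23 at -0.21, Mrpl24 at 0.10 and Mrpl45, which anchors the ribosome to the inner membrane, at 0.01. Mrps12, of the decoding centre of the small subunit, was at 43.4, 38.3, 54.5 and 42.1 scaled FPKM in knockouts 1 to 4, against 40.7, 66.3, 59.4 and 41.9 in wild types 1 to 4. The libraries of both genotypes were widely spread and overlapped, with a log2 difference of -0.20 (SE 0.18). Mrps36, the member now placed in a dehydrogenase complex, stood at -0.08, and Mrps30 at -0.08.

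The mean levels of the members over the 8 libraries were lowest for Mrpl19 and highest for Mrpl42, at 625 scaled FPKM. The 3 highest were Mrpl42, Mrpl33 and Mrps21. Mrpl33 averaged 468 ± 15.4 scaled FPKM in knockout and 535 ± 85.7 in wild type, and Mrps21 averaged 332 ± 34.6 in knockout and 384 ± 42.2 in wild type (SD, n = 4 each). The lowest 3 were Mrpl19, Mrps25 and Mrpl17, at 6.07 ± 0.863, 9.26 ± 0.787 and 9.52 ± 0.940 in knockout and 6.34 ± 0.658, 9.36 ± 0.504 and 9.60 ± 1.003 in wild type (SD, n = 4 each), and Mrpl19 and Mrps25 overlap Gcfc2 and Nr2c2. Of the 77, 20 averaged at least 100 scaled FPKM, 20 lay from 50 to 100, 34 from 10 to 50 and 3 below 10. The median member averaged 50.4 scaled FPKM, against 8.11 for the median gene tested. Together the members held at most 1.09% of summed FPKM in a library. That sum lacks abundant genes in some libraries, since Myh4 is listed at 0 except in knockout 2 and knockout 4. The members' median coefficient of variation over the 8 libraries was 9.62%, against 14.5% over all genes tested, a comparison not matched for level.

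The position of the members as a group varied between libraries, and the genotypes overlapped. For each library the median over the 77 of the deviation from each gene's mean over the 8 libraries was taken on the log2 scale. It was -0.03, -0.11, 0.08 and -0.06 in knockouts 1 to 4, against 0.02, 0.05, 0.16 and -0.06 in wild types 1 to 4. Knockout 3 was therefore above 3 of the wild types, and wild type 4 lay among the knockouts. Summed over the members, scaled FPKM ran from 6009 to 7027 in knockout and from 6451 to 7757 in wild type. The median log2 difference of -0.08 became -0.05 without wild type 3, and lay between -0.11 and -0.06 without any other library. It was -0.05 in the 5 libraries without Xist, with 47 of 77 members lower, and -0.04 without knockout 2 and knockout 4. In the 3 libraries with Xist it was -0.11, with 63 of 77 lower, a contrast that rests on wild type 1 alone.

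**Figure D3:**
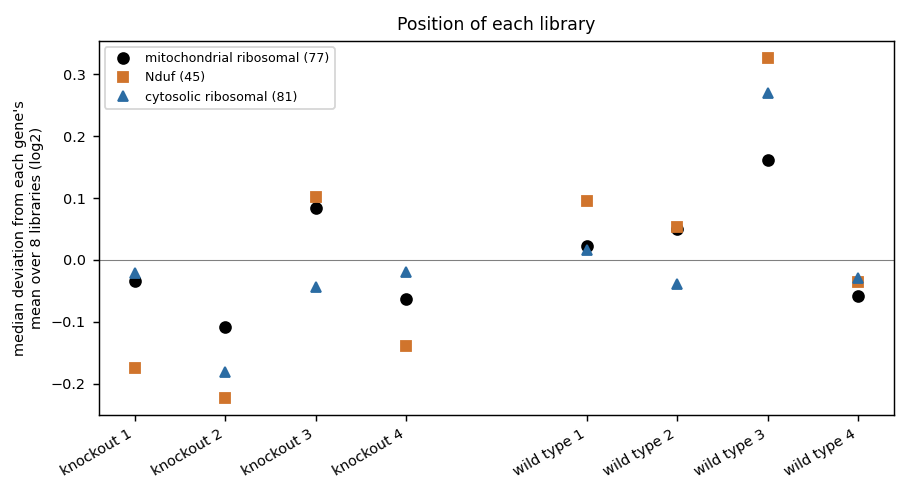
Median deviation of each library (log2 scale, 0 is each gene's mean over the 8 libraries) over the 77 mitochondrial ribosomal protein genes, 45 Nduf genes and 81 cytosolic ribosomal protein genes, knockouts left and wild types right. Wild type 3 is highest for all 3 lists, at 0.16, 0.33 and 0.27, and knockout 2 is lowest, at -0.11, -0.22 and -0.18.

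Beside related lists of genes, the members lay nearer to 0 than the genes named Nduf, a difference that was not tested. The 45 genes named Nduf encode subunits and assembly factors of respiratory complex I, apart from Ndufa4, now placed in complex IV, and its paralog Ndufa4l2. They had a median log2 difference of -0.23 with 44 below 0. The 81 tested genes of cytosolic ribosomal proteins had a median of -0.11 with 75 below 0, and 0 genes of either list passed. Per library the Nduf genes ran from -0.22 to 0.10 in knockout and from -0.04 to 0.33 in wild type, and wild type 3 was again the highest library and knockout 2 the lowest. The median deviation of the 6 tested fibre markers was -0.01, -0.58, 0.22 and -0.41 in knockouts 1 to 4, against -0.01, 0.18, 0.48 and 0.00 in wild types 1 to 4, and their part in the result was not tested. Members are short and abundant, with a median transcript length of 850 bases in GENCODE M21 against 1324 over all genes tested. With trends on GC content, mean level and transcript length taken out of each library, their median was -0.03, with 46 of 77 below 0, that of the Nduf genes was -0.10, and that of the cytosolic ribosomal genes turned to 0.01, with 36 of 81 below 0. The cytosolic list also lay near 0 with quantile normalization, with 46 of 81 below 0, and without scaling, with a median of -0.02 and 49 of 81 below 0.

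Other genes of mitochondrial translation lay on both sides of 0. In limma no gene passed in the 6 lists given here, in either direction. Of 6 further proteins of the ribosome with names of another kind (Dap3, Aurkaip1, Ptcd3, Chchd1, Gadd45gip1 and Ict1) 3 were lower, with a median of -0.00. Ict1, a peptidyl-tRNA hydrolase built into the large subunit, stood at -0.16, and Gadd45gip1 at 0.14. Of 26 assembly factors 11 were lower, with a median of 0.02. Ndufab1 is in this list and also among the Nduf genes, and it was lower. The pseudouridine synthase Trub2 stood at 0.40 and the GTPase Mtg1, which acts in maturation of the large subunit, at 0.20. In the other direction Malsu1 stood at -0.31 (limma adjusted p = 0.292). Mtg1 averaged 29.3 ± 1.59 scaled FPKM in knockout and 25.4 ± 1.20 in wild type (SD, n = 4 each). Its groups did not overlap (limma adjusted p = 0.28). Mtg1 was the 1 gene of the 26 without overlap in the higher direction, against 4.67% of all genes. In the lower direction there were 0, against 3.64%.

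Translation factors and tRNA synthetases were split about evenly. Of 16 translation factors and mRNA-handling proteins 9 were lower, with a median of -0.03; the release factor Mtrf1l stood at -0.17 and Slirp, which stabilises mitochondrial mRNA with Lrpprc, at -0.21. Of 20 genes that charge mitochondrial tRNAs 9 were lower, with a median of 0.04. Cars2, the cysteine enzyme, averaged 10.1 ± 0.755 scaled FPKM in knockout and 13.2 ± 1.18 in wild type (SD, n = 4 each), a log2 difference of -0.35 (SE 0.09, limma adjusted p = 0.136), and Qrsl1, of the glutamine amidotransferase, stood at -0.24. No overlap in the lower direction was found for 3 of the 20, Cars2 and Qrsl1 among them, against 3.64% of all genes. The same held for 2 of the 16 translation factors, Mtrf1l and Slirp. In the higher direction it was found for 0 of either list, against 4.67% of all genes.

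Genes upstream of the mitochondrial ribosome showed no common direction either. Of 9 tested genes of mitochondrial DNA maintenance and transcription 3 were lower, with a median of 0.03; Tfam, which packages mitochondrial DNA, stood at 0.15 and the polymerase subunit Polg2 at -0.15. Of 10 regulators of mitochondrial biogenesis, among them Ppargc1a, Nrf1, Gabpa and Yy1, 6 were lower, with a median of -0.05. Myc was at 1.47 ± 0.121 scaled FPKM in knockout and 3.13 ± 1.16 in wild type (SD, n = 4 each). Its groups did not overlap (log2 difference -0.70, SE 0.18, limma adjusted p = 0.153), and Tead4 stood at 0.29. Groups without overlap in the lower direction were found for 2 of the 10 regulators, Myc among them, against 3.64% of all genes. In the higher direction there were 0, against 4.67%.

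The summed levels of markers of cells other than fibres overlapped between the genotypes, and their part in the result was not tested. Summed over 10 tested markers each, fibro-adipogenic cells ran from 539 to 872 scaled FPKM in knockout and from 626 to 1085 in wild type, and endothelium from 288 to 388 in knockout and from 345 to 391 in wild type. The 8 smooth muscle markers ran from 239 to 286 in knockout and from 255 to 378 in wild type. All members of these 3 lists had log2 differences below 0. Without scaling this held for 7 of the 10 endothelial, 9 of the 10 fibro-adipogenic and all 8 smooth muscle markers. The 7 tested of 8 macrophage markers summed to at most 38.8 in knockout and at most 35.5 in wild type, with 0 of them below 0 over all libraries and 4 of 7 below 0 in the 5 libraries without Xist. Of the adipocyte and satellite cell lists 3 of 7 and 3 of 6 genes were expressed enough to be tested. All 3 adipocyte genes were below 0, with a median of -0.57. Of the 3 satellite cell genes 2 were below 0, with a median of -0.18. Of 8 tested markers of slow fibres 7 were above 0, with a median of 0.59. That median was 0.28 without knockout 2 and knockout 4, 0.43 with Xist as a covariate and 0.59 in the 5 libraries without Xist. The summed level of these 8 markers ran from 153 to 360 scaled FPKM in knockout and from 134 to 593 in wild type, highest in wild type 1. No marker of these 7 lists passed.

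Some members share a start region with another gene read in the opposite direction, which gives a local comparison. How often tested genes have such a neighbour was not counted. A protein-coding gene on the other strand began within 1000 bases upstream, or up to 200 bases downstream, of the start of 23 members, by the loci of the files with strands from GENCODE M21. In 19 of the 23 the partner was tested, and 8 of these 19 had the sign of the member; Mrps11 and Mrpl46 are each other's partner and count under both. Mrpl47 and the complex I gene Ndufb5, whose starts lie 308 bases apart, stood at -0.61 (SE 0.14) and -0.38 (SE 0.14) on the log2 scale. Mrps12 and Sars2, the mitochondrial seryl-tRNA synthetase, stood at -0.20 and 0.11, and Mrpl40 and the histone chaperone gene Hira at 0.22 and -0.14.

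The largest contrast within a pair was that of Mrps34 and Eme2, a subunit of a DNA endonuclease, whose starts lie 33 bases apart on chromosome 17 (mm10). Eme2 was the 1 partner of the 19 tested that passed, where 0.36% of all genes did. It stood at 6.09, 8.37, 5.61 and 6.93 scaled FPKM in knockouts 1 to 4. In wild types 1 to 4 it stood at 3.72, 3.58, 2.83 and 3.04. Eme2 was higher in the knockout by 0.85 on the log2 scale (SE 0.12, limma adjusted p = 0.0434). With any 1 library left out its limma adjusted p lay between 0.0472 and 0.144. Mrps34, a small-subunit protein, averaged 83.3 ± 8.64 scaled FPKM in knockout and 86.9 ± 3.75 in wild type (SD, n = 4 each), with overlapping groups and a log2 difference of -0.07 (SE 0.09, limma adjusted p = 0.813). The kit named in the labels is not stated to mark strand, so reads near the shared start cannot be assigned with certainty.

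**Figure D4:**
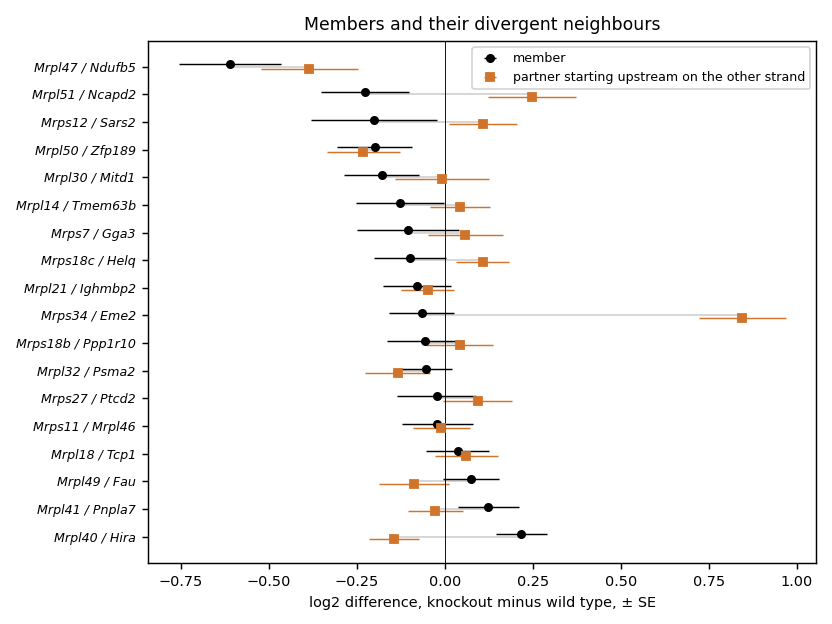
Log2 difference, knockout minus wild type, with standard error, of members (circles) and of the tested protein-coding gene that starts near them on the other strand (squares), sorted by the member. Eme2 lies far from its neighbour Mrps34, at 0.85 against -0.07, while Mrpl47 and Ndufb5 are both well below 0.

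The members sit on 17 chromosomes, with 10 of them on chromosome 11. The loci of 66 members overlap no other listed gene, and among these 55 were below 0, with a median of -0.10.

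**Figure D5:**
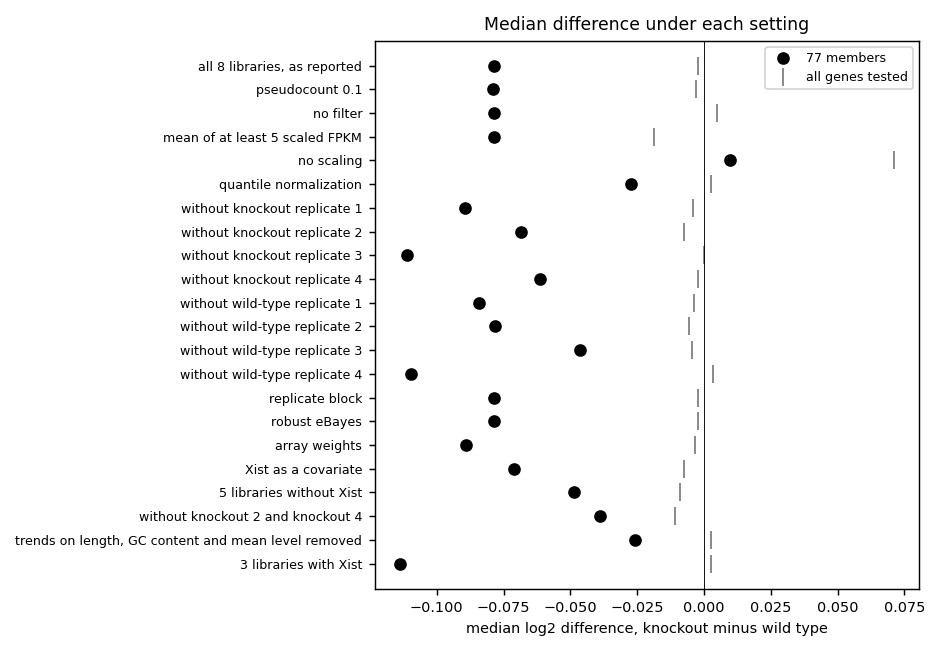
Median log2 difference, knockout minus wild type, of the 77 members (points) and of all genes tested (ticks) under each setting tried. The members lie left of all genes in every row, and to the right of 0 only without scaling.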

How the data were processed

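Total RNA of the tibialis anterior of 8 mice, frozen, was extracted with Trizol and made into TruSeq RNA v2 libraries, per the labels' protocols. The submitters' processing notes name STAR, Cufflinks and the mm10 build; for versions and annotation, nothing is given in the sources used here. The authors deposited FPKM values, 1 table for each library, whose file headers are those of Cufflinks gene tables. No counts are given, so depth per gene is unknown and no count model was used. Where genes overlap, Cufflinks estimates how reads divide between them.

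Each library's FPKM were scaled by a median-of-ratios factor (0.904 to 1.07). Genes with status OK in all libraries (23 lacked it) that reached 1 scaled FPKM in 4 or more libraries were tested on log2(scaled FPKM + 1), which understates changes of low genes, with limma 3.58.1 (eBayes with trend) in R 4.3.3, Benjamini-Hochberg adjustment and a threshold of 0.05. Code was tested on simulated data. Starts of loci were raised by 1 base to match the annotation. GENCODE M21 gave length and GC content for 96.4% of tested genes. Python 3.11.15 was used for the rest.

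The members, lists and alternatives were chosen with earlier results of these data known, and the within-Xist contrast after the files were seen. Genes named are members past the threshold or without overlap, the 6 of smallest p in each direction, the 3 highest and 3 lowest, Mrps18 paralogs, and the 2 of smallest p in each other list, printed here for the pathway lists; role groups, divergent neighbours and other genes named were picked once their values were known. Alternatives were no filter, a pseudocount of 0.1, a minimum mean of 5, no scaling, quantile normalization, each library left out, the replicate block, robust eBayes, array weights, Xist as a covariate, libraries with or without Xist, leaving out knockout 2 and 4, and removal of loess trends (span 0.5).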

Additional observations from a re-analysis of the deposited data

Results flagged for a closer look

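Among 78 groups of 4 values examined, 3 had a library set apart from the other 3 by more than Dixon's 95% critical value, where chance gives about 1 in 20. Mrpl55 stood at 76.2 scaled FPKM in wild type 3 and between 62.6 and 64.4 in the other wild types. Slirp stood at 381 scaled FPKM in wild type 3 and between 288 and 302 in the other wild types. The median deviation of the cytosolic ribosomal protein genes stood at -0.18 in knockout 2, with the remaining knockouts from -0.04 to -0.02.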

How the results depend on the processing

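The count of 0 members past the threshold became 1 with array weights (Mrps24) and 2 with Xist as a covariate (Mrpl47 and Mrps2), and was 0 under each other setting run, leaving out any library included (0 to 0). The median log2 difference of the members kept its sign except without scaling, where it was 0.0099 and 35 of 77 were lower; it was -0.03 with quantile normalization, with trends removed -0.03, and between -0.11 and -0.05 with 1 library left out, where 52 to 67 members were lower. Over all genes the 40 calls became 8 with no filter, 15 with a mean of at least 5, 103 with array weights, 223 with Xist as a covariate, 3 in the 5 libraries without Xist, 13 without knockout 2 and knockout 4, 66 with trends removed, and between 2 and 27 with 1 library left out. With the replicate block limma called 0 genes and 0 members, with 1314 genes and 8 members at an unadjusted p under 0.05. Deviations of same-numbered libraries correlated at -0.43, -0.19, 0.35 and 0.19. The highest correlation of any pair was 0.48, for knockout 2 and wild type 1, both with Xist. Libraries with Xist differ in number between the genotypes, so these values cannot show whether same-numbered libraries share more than a number. The log2 difference of Carm1 lay between -1.02 and -0.84 with 1 library left out; its exact p is then at its floor by construction. Of the 20 named members, Mrpl17, Mrpl19, Mrps18b and Mrps25, all within 0.1 of 0, changed sign under 8, 3, 4 and 8 alternatives, and the other 16 kept theirs. Of all 77, 32 were lower and 8 higher under every one of the 20 alternatives, and the rest changed sign under at least 1. Without counts, the precision of single low members such as Mrpl19 cannot be given.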
